A study of Mus musculus with 12 samples.

Results

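Cation-chloride cotransporters of the SLC12 family and the kinases that act on them were followed at the site of a spinal cord injury, with and without a reduction of pericyte-derived scarring. The genes were chosen by name, with no threshold on their values but with earlier results of these data known: 7 symbols, which matched 8 Ensembl identifiers of the 37991 in the count table, because Wnk1 names 2 identifiers. They are the potassium-chloride cotransporters Slc12a5 (KCC2, ENSMUSG00000017740), Slc12a4 (KCC1, ENSMUSG00000017765) and Slc12a7 (KCC4, ENSMUSG00000017756), the sodium-potassium-chloride cotransporter Slc12a2 (NKCC1, ENSMUSG00000024597), and the kinases Wnk1 (ENSMUSG00000045962 and ENSMUSG00000089896), Stk39 (SPAK, ENSMUSG00000027030) and Oxsr1 (OSR1, ENSMUSG00000036737). All 8 identifiers passed the filter on low counts, and each is described here.

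KCC2 carries chloride out of neurons and NKCC1 carries it in, and the balance between them sets how far GABA and glycine receptors hyperpolarise a neuron. WNK kinases sense chloride and cell volume and phosphorylate SPAK and OSR1, which in turn phosphorylate the cotransporters, activating NKCC1 and inhibiting the KCCs. In the injured spinal cord, loss of KCC2 from motoneurons is known from rodent work to accompany spasticity and hyperreflexia. KCC1 and KCC4 are found in many non-neuronal cells, where they take part in the regulation of cell volume.

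Total RNA was sequenced from 12 libraries in 3 groups of 4, each from a differently numbered mouse. All mice were adult C57bl/6J animals, more than 8 weeks old, of the genotype Glast-CreERT2 x R26R-YFP x Rasless, so the controls carry the same alleles; in this line a tamoxifen-inducible recombinase is driven in Glast-expressing cells, among them the type A pericytes, and Rasless is the submitters' name for its Ras alleles. The tamoxifen lesions (SCI Tam) came from mice given 2 mg of tamoxifen a day for 5 days and, after 7 days of clearing, a dorsal hemisection at high thoracic level; the site was taken 14 days later and is described by the submitters as having attenuated pericyte-derived scarring. The vehicle lesions (SCI Veh) came from mice given the solvent on the same schedule and injured in the same way, and are described as densely scarred. The uninjured cord segments came from age-matched mice labelled with a vehicle injection and no injury. No injured wild-type mice and no uninjured mice given tamoxifen are among the samples, so an effect of tamoxifen itself and of the recombination it induces cannot be told apart.

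Values are counts-per-million (CPM) after TMM scaling, unless FPKM (fragments per kilobase of transcript, scaled to depth) is named; counts in each library totalled 7967970 to 12581324. Log2 changes with their standard errors (SE) and adjusted p-values come from edgeR's quasi-likelihood test with Benjamini-Hochberg adjustment over 16473 genes, and a gene is called at an adjusted p under 0.05. The p-values measure the spread between mice as labelled. Values per library are listed in the order of mice 452, 513, 549 and 564 for tamoxifen lesions, 402, 428, 429 and 457 for vehicle lesions, and 376, 377, 385 and 467 for uninjured cords.

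The libraries differed in ways that run along with the groups. Tamoxifen libraries 513, 549 and 564 carry sample names 106 to 108 and the other 9 libraries carry names 1 to 20, so with the name series as a term in the fit the tamoxifen effect rests on mouse 452 alone. By sex-linked transcripts all 4 tamoxifen mice were female, against 1 of 4 vehicle mice and 3 of 4 uninjured mice. Skeletal muscle transcripts were high in 402, 429 and 457, all vehicle lesions, and in 377 and 385, both uninjured, but in no tamoxifen library; summed CPM of 9 muscle markers was 5.38 to 23.7 in tamoxifen lesions and 11.9 to 673 in vehicle lesions, against 4.25 to 803 in uninjured cords. Without the 5 muscle-high libraries a single vehicle library (428) is left. Summed CPM of 12 neuron markers was 5952 to 7079 in tamoxifen lesions and 5244 to 6324 in vehicle lesions, against 7990.1 to 8572 in uninjured cords. Summed CPM of 8 fibroblast markers was 945 to 1571 in tamoxifen lesions and 3648 to 9712 in vehicle lesions, against 167 to 717 in uninjured cords.

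Upstream sequences are shown for the 3 KCC genes whose levels differed most between lesions and uninjured cord, Slc12a5 lower and the other two higher. They are RefSeq sequences on GRCm38.p6, a later build than the mm9 named in the submitters' processing notes, and run 5′ to 3′ on the coding strand up to the base before a RefSeq start, less any base that the GENCODE annotation places in an exon. Slc12a5 has 2 annotated starts, known to give KCC2 proteins that differ at the amino terminus, and the counts of this gene sum over both. Capitals mark the letters of a GC box (GGGCGG, the motif of SP-family factors) or an E-box (CACGTG) on either strand.
Slc12a5 first start, chr2:164960596-164960801, plus strand: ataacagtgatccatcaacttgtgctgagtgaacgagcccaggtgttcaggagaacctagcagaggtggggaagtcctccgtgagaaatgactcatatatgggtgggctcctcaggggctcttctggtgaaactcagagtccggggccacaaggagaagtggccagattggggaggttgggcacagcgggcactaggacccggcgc
Slc12a5 second start, chr2:164967738-164967982, plus strand: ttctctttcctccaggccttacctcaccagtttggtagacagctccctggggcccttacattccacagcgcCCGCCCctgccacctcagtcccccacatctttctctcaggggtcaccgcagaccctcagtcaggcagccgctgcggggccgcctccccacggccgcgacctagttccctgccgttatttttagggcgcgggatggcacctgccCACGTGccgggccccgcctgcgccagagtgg
Slc12a4, chr8:105966116-105966365, minus strand: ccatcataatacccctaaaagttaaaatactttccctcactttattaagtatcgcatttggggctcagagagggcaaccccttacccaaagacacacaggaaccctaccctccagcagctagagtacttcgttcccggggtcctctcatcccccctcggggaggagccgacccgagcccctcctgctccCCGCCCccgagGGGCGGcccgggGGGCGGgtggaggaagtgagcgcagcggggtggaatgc
Slc12a7, chr13:73763447-73763696, plus strand: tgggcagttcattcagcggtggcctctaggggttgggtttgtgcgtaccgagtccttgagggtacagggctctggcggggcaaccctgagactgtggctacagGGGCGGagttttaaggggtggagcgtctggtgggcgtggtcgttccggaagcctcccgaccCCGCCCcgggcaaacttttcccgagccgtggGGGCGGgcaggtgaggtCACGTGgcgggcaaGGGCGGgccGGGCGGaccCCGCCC
Both strands of the 250 bases before each start were searched for those letters and for GCGNGGGCG, a motif of EGR factors, whose letters can overlap a GC box. The first Slc12a5 start had none of the 3. The second Slc12a5 start had 1 GC box and 1 E-box, Slc12a4 had 3 GC boxes, and the Slc12a7 start shown had 6 GC boxes and 1 E-box. Another annotated Slc12a7 start, not shown, has an overlapping window (chr13:73763410-73763659) with 3 GC boxes and 0 E-boxes. Among 32851 RefSeq promoter windows of that length, 32.7% held a GC box, 6.02% an E-box and 4.70% the EGR letters. The windows of Stk39, Wnk1 and Oxsr1, not shown, had 4, 4 and 1 GC boxes and 0 E-boxes each. Whether the number of boxes goes with the direction of a gene's change was not tested. A match describes letters in the window and no binding was measured.

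In all, the comparison of tamoxifen lesions with vehicle lesions called 1 of the 8 identifiers higher (Stk39) and 3 lower (Slc12a7 and both Wnk1 identifiers), where 7.79% and 8.33% of all genes tested were called higher and lower (16.1% in either direction). Vehicle lesions against uninjured cord gave 3 higher (Slc12a4, Slc12a7 and the main Wnk1 identifier) and 3 lower (Slc12a5, Stk39 and the second Wnk1 identifier), where the shares over all genes were 26.7% and 24.1% (50.8% in either direction). Tamoxifen lesions against uninjured cord gave 2 higher (Slc12a4 and Slc12a7) and 2 lower (Slc12a5 and the second Wnk1 identifier), with 26.3% and 22.7% over all genes (48.9% in either direction). The median log2 change of the 8 identifiers was −0.18, 0.04 and −0.09 in these comparisons, against 0.00, 0.02 and 0.01 over all genes. The 3 comparisons share libraries in pairs, so their values are set side by side and not as independent results. With the sample name series in the fit, none of the 8 was called between tamoxifen and vehicle lesions by edgeR, and with sex in the fit 1 was called higher and 1 lower. Against uninjured cord, tamoxifen lesions had 0 of the 8 higher and 1 lower (Slc12a5) with the name series in the fit. Without the muscle-high libraries 1 vehicle library is left, so calls that involve the vehicle group cannot be weighed. The median log2 change of the 8 identifiers was then −0.22 between tamoxifen and vehicle lesions and 0.01 between vehicle lesions and uninjured cord. Between tamoxifen lesions and uninjured cord it was −0.11.

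**Figure D1:**
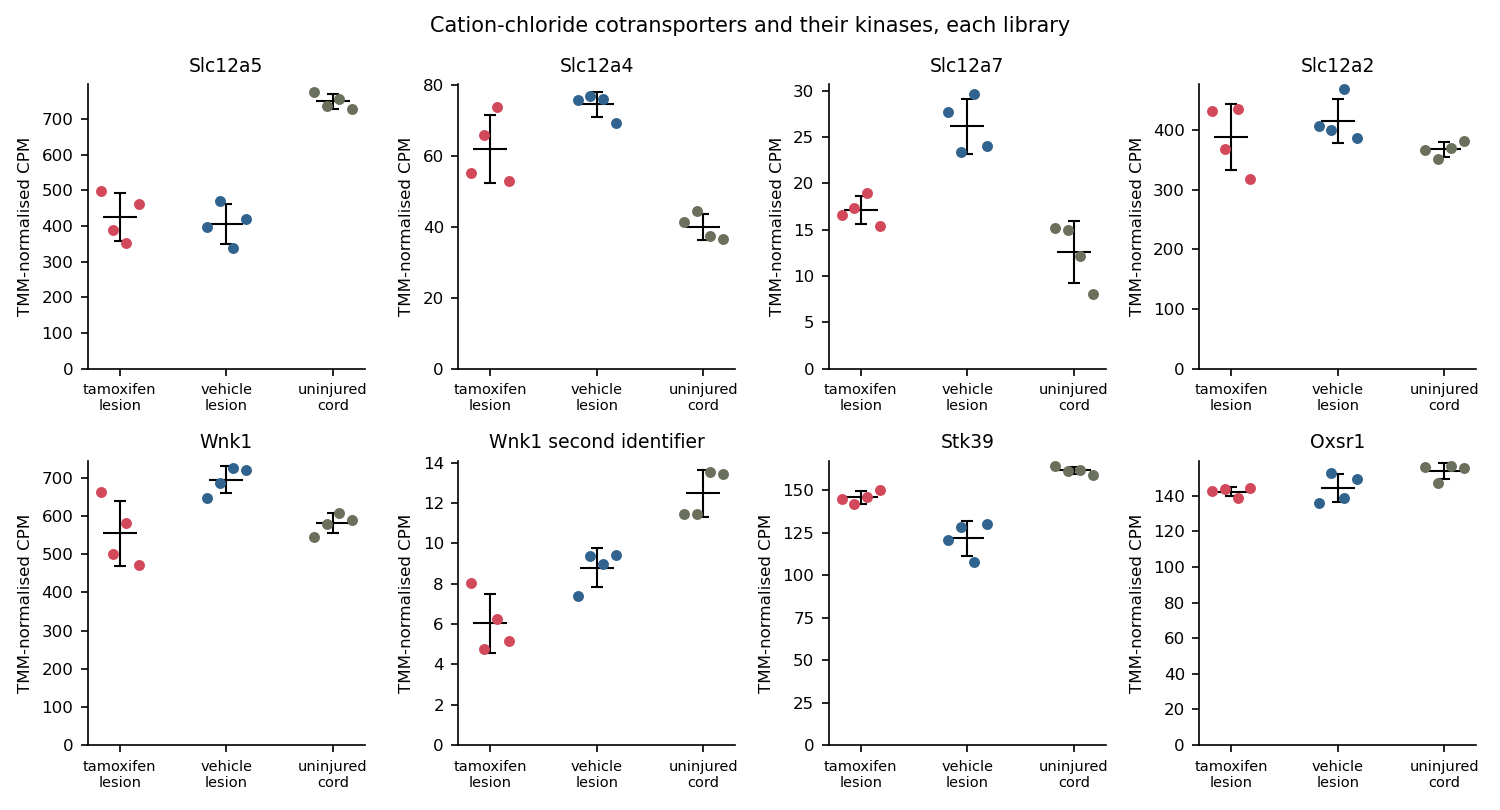
TMM-normalised CPM of each of the 8 identifiers (vertical axes from 0) in tamoxifen lesions, vehicle lesions and uninjured cords; points are libraries, long dashes group means and bars the SD (n = 4). Slc12a5 lies at 352 to 498 CPM in tamoxifen lesions and 337 to 471 CPM in vehicle lesions, against 729 to 775 CPM in uninjured cords, while Slc12a4 is higher in all lesions than in any uninjured cord.

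Slc12a5, the neuronal chloride extruder, was lower in both kinds of lesion than in uninjured cord, and tamoxifen and vehicle lesions did not differ beyond their spread. It had 498, 389, 352 and 462 CPM in tamoxifen lesions and 396, 471, 337 and 419.9 CPM in vehicle lesions, against 775, 738, 755 and 729 CPM in uninjured cords. The lesion groups overlapped each other, and the highest lesion library was below the lowest uninjured one; over all genes, 51.0% had no overlap between vehicle lesions and uninjured cords and 41.1% none between tamoxifen lesions and uninjured cords. Group means were 426 ± 66.5 CPM, 406 ± 55.4 CPM and 749.6 ± 20.3 CPM (SD, n = 4 each) in tamoxifen lesions, vehicle lesions and uninjured cords. Against uninjured cord the log2 change was −0.82 in tamoxifen lesions (SE 0.11, adjusted p = 0.000149) and −0.88 in vehicle lesions (SE 0.11, adjusted p = 5.0e-05), so that uninjured cords held 1.76 and 1.85 times the level of the lesions. Tamoxifen lesions over vehicle lesions gave 0.07 (SE 0.11, adjusted p = 0.706). The vehicle difference was −0.70 without the muscle-high libraries (adjusted p = 0.128).

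In bulk tissue, fewer neurons and less Slc12a5 RNA per neuron cannot be told apart. Of 12 neuron markers, 9 were called lower than in uninjured cord in tamoxifen lesions and 12 in vehicle lesions, with median log2 changes of −0.43 and −0.60. The count was 2 in tamoxifen lesions with the name series in the fit, and 4 in tamoxifen lesions and 0 in vehicle lesions without the muscle-high libraries. For comparison, log2 Slc12a5 was set against the mean log2 CPM of those 12 markers in the same library. The difference was 0.34, 0.17, 0.13 and 0.16 in tamoxifen lesions and 0.28, 0.42, 0.24 and 0.35 in vehicle lesions, against 0.59, 0.55, 0.66 and 0.56 in uninjured cords. Slc12a5 therefore stood lower relative to these markers in every lesion library than in any uninjured library, and the highest tamoxifen value was that of mouse 452. This is a description of the chosen markers, whose own log2 changes in vehicle lesions ran from −1.09 to −0.26.

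Slc12a4 and Slc12a7 went the opposite way to Slc12a5 after injury. Slc12a4, the widely expressed KCC1, had 55.4, 66.0, 73.9 and 52.9 CPM in tamoxifen lesions and 76.0, 76.9, 76.2 and 69.4 CPM in vehicle lesions, against 41.4, 44.6, 37.5 and 36.5 CPM in uninjured cords. All lesion libraries lay above all uninjured ones, and 3 of the 4 tamoxifen libraries lay below every vehicle library. Relative to uninjured cord it rose by a log2 change of 0.63 in tamoxifen lesions (SE 0.10, adjusted p = 0.000393) and 0.90 in vehicle lesions (SE 0.10, adjusted p = 2.3e-05), folds of 1.55 and 1.86. The difference between tamoxifen and vehicle lesions was −0.26 (SE 0.10) and did not pass (adjusted p = 0.0903). It stayed uncalled in 20 of 21 alternatives, among them the fit without tamoxifen library 564 (−0.19, adjusted p = 0.242). Only the fit without tamoxifen library 549 passed (−0.36, adjusted p = 0.0276). With the name series in the fit, the tamoxifen rise over uninjured cord was 0.47 (adjusted p = 0.0697), and without the muscle-high libraries the vehicle rise was 0.96 (adjusted p = 0.0694).

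Slc12a7, KCC4, was the least abundant of the members by FPKM and was highest in vehicle lesions. It had 16.5, 17.3, 19.0 and 15.4 CPM in tamoxifen lesions and 27.7, 23.3, 29.6 and 24.0 CPM in vehicle lesions, against 15.1, 15.0, 12.1 and 7.99 CPM in uninjured cords. The 3 groups did not overlap one another, where 16.4% of all genes had no overlap between tamoxifen and vehicle lesions. It was called lower in tamoxifen than in vehicle lesions (log2 −0.61, SE 0.16, adjusted p = 0.0264), higher in vehicle lesions than in uninjured cord (log2 1.06, SE 0.17, adjusted p = 0.000222, a fold of 2.09) and higher in tamoxifen lesions than in uninjured cord (log2 0.45, SE 0.17, adjusted p = 0.0442). The call between lesions was lost in the authors' FPKM (adjusted p = 0.0746 and 0.107 with pseudocounts of 1 and 0.1), with the name series in the fit (log2 −0.66, adjusted p = 0.330), without the muscle-high libraries (log2 −0.45, adjusted p = 0.698), among female libraries (0.0580) and without any of libraries 402, 429, 513 or 564 (0.0577 to 0.0796). The vehicle rise over uninjured cord was 1.00 without the muscle-high libraries (adjusted p = 0.142). The tamoxifen rise over uninjured cord fell to a log2 of 0.28 without uninjured library 467 (adjusted p = 0.0839) and lost its call in 13 of 21 alternatives. Fibroblast markers, whose sums are given above, were all called lower in tamoxifen than in vehicle lesions (8 of 8) and all higher in vehicle lesions than in uninjured cord; their part in the Slc12a7 difference was not tested.

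Slc12a2, the chloride importer NKCC1, did not pass the test in any comparison. It had 432, 369, 436 and 319 CPM in tamoxifen lesions and 407, 399.9, 469 and 386 CPM in vehicle lesions, against 366, 352, 369.7 and 383 CPM in uninjured cords. Every vehicle library lay above every uninjured one, while tamoxifen libraries spanned both groups and included the lowest value of all. The log2 changes were −0.10 for tamoxifen against vehicle lesions (SE 0.10, adjusted p = 0.503), 0.18 for vehicle lesions against uninjured cord (SE 0.10, adjusted p = 0.140) and 0.08 for tamoxifen lesions against uninjured cord (SE 0.10, adjusted p = 0.508).

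The ratio of exporter to importer was taken on the FPKM scale, which is per length. Slc12a5 over Slc12a2 was 1.42, 1.32, 1.01 and 1.81 in tamoxifen lesions and 1.20, 1.42, 0.895 and 1.33 in vehicle lesions, against 2.55, 2.53, 2.46 and 2.42 in uninjured cords. All lesion ratios lay below all uninjured ratios, and 1 vehicle library (429) had less Slc12a5 than Slc12a2. The means were 1.39 ± 0.33 in tamoxifen lesions, 1.21 ± 0.23 in vehicle lesions and 2.49 ± 0.063 in uninjured cords (SD, n = 4 each). No test was run on the ratio, since both genes are members, and it is a ratio of tissue RNA over all cells, not of transporters within a neuron.

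**Figure D2:**
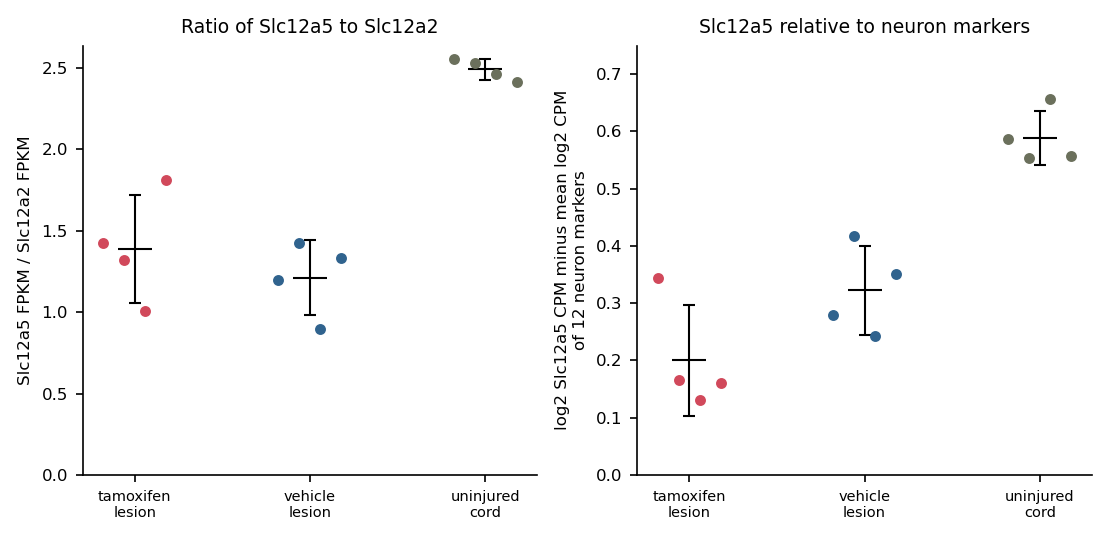
Left, the ratio of Slc12a5 FPKM to Slc12a2 FPKM; right, log2 Slc12a5 CPM minus the mean log2 CPM of 12 neuron markers; points are libraries, long dashes group means and bars the SD (n = 4). In both panels every lesion library lies below the uninjured ones, which start at a ratio of 2.42 and at a difference of 0.55.

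Wnk1, the kinase at the head of the cascade, was highest in vehicle lesions. It had 662, 501, 582 and 473 CPM in tamoxifen lesions and 649, 687, 726 and 721 CPM in vehicle lesions, against 546, 579.7, 609 and 591 CPM in uninjured cords. Tamoxifen library 452 lay among the vehicle libraries and the other 3 below them. It was called lower in tamoxifen than in vehicle lesions (log2 −0.33, SE 0.09, adjusted p = 0.0337) and higher in vehicle lesions than in uninjured cord (log2 0.26, SE 0.09, adjusted p = 0.0342), and tamoxifen lesions and uninjured cords gave −0.07 (SE 0.09, adjusted p = 0.573). The lesion difference was −0.07 with the name series in the fit (adjusted p = 0.811), −0.35 with sex in the fit (0.112), −0.31 without the muscle-high libraries (0.667) and −0.40 among female libraries (0.219), and it lost its call without any of libraries 428, 429, 457, 513 or 564 (adjusted p from 0.0502 to 0.0992). The vehicle rise over uninjured cord lost its call with sex in the fit (adjusted p = 0.0644) and without any of 376, 377, 467, 428, 429 or 457 (0.0607 to 0.110). In FPKM Wnk1 was 150.3, 137, 136 and 108 in tamoxifen lesions, 188, 168, 178 and 177 in vehicle lesions, and 117, 137, 123 and 149 in uninjured cords, and there no tamoxifen library reached the vehicle range.

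A second identifier that the FPKM table also names Wnk1 was lower in lesions. It had 8.03, 4.75, 6.24 and 5.14 CPM in tamoxifen lesions and 7.37, 9.38, 9.00 and 9.41 CPM in vehicle lesions, against 11.5, 11.5, 13.5 and 13.4 CPM in uninjured cords. Both lesion groups lay below the uninjured one. The log2 changes were −0.55 between tamoxifen and vehicle lesions (SE 0.16, adjusted p = 0.0360, not called in 13 of 21 alternatives), −0.51 for vehicle lesions against uninjured cord (SE 0.15, adjusted p = 0.0147) and −1.06 for tamoxifen lesions against uninjured cord (SE 0.16, adjusted p = 0.000228). With the name series in the fit the tamoxifen difference from uninjured cord was −0.64 (adjusted p = 0.0652), and the vehicle difference was −0.44 without the muscle-high libraries (adjusted p = 0.491) and −0.44 among female libraries (adjusted p = 0.289). How reads are split between the identifiers of 1 gene depends on the counting, which the sources used here do not describe, so its direction is uncertain as a statement about Wnk1.

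Stk39, which encodes SPAK, was lower in vehicle lesions than in uninjured cord. Its counts gave 145, 142, 146 and 150.3 CPM in tamoxifen lesions and 121, 129, 108 and 130.3 CPM in vehicle lesions, against 164, 161, 162 and 159 CPM in uninjured cords, with no overlap between any groups. Over all genes, 51.0% had no overlap between vehicle lesions and uninjured cords. The shares were 41.1% between tamoxifen lesions and uninjured cords and 16.4% between tamoxifen and vehicle lesions. The vehicle difference from uninjured cord was −0.41 (SE 0.06, adjusted p = 0.000119), the tamoxifen difference from uninjured cord −0.15 (SE 0.06, adjusted p = 0.0516), and tamoxifen over vehicle lesions 0.26 (SE 0.06, adjusted p = 0.0141). The tamoxifen difference from uninjured cord lay near the threshold and passed it in 8 of 21 alternatives, where the fits on counts that passed gave log2 changes of −0.16 to −0.17 (adjusted p from 0.0183 to 0.0487). The vehicle difference was −0.36 without the muscle-high libraries (adjusted p = 0.120). The authors' FPKM put the tamoxifen libraries elsewhere: 43.0, 37.6, 38.6 and 41.0 in tamoxifen lesions and 43.8, 45.0, 33.5 and 47.6 in vehicle lesions, against 58.2, 59.7, 54.8 and 63.3 in uninjured cords. On that scale tamoxifen and vehicle lesions overlapped (log2 −0.07 by limma, adjusted p = 0.666) and the tamoxifen difference from uninjured cord was −0.55 (adjusted p = 0.0014). The fall in vehicle lesions was thus called in both tables, whereas the size of the tamoxifen difference from uninjured cord, and the order of tamoxifen and vehicle lesions, differed between the tables.

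The size of that disagreement was measured as log2 of CPM over FPKM, less the library's median. For Stk39 it was 0.42 to 0.45 in libraries named 106 to 108 and −0.13 to 0.28 in the other 9, where the highest value belonged to tamoxifen library 452. Its step between the name series was 0.37, and 3.39% of 15172 genes compared had an upward step at least as large with no overlap. No other member stepped by more than 0.15 in size. For the second Wnk1 identifier the measure was −1.81 to −1.66 in tamoxifen lesions, library 452 included, and −1.58 to −1.46 in all other libraries, with no overlap. With the name series in the fit the Stk39 difference between lesions was 0.25 (adjusted p = 0.275).

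**Figure D3:**
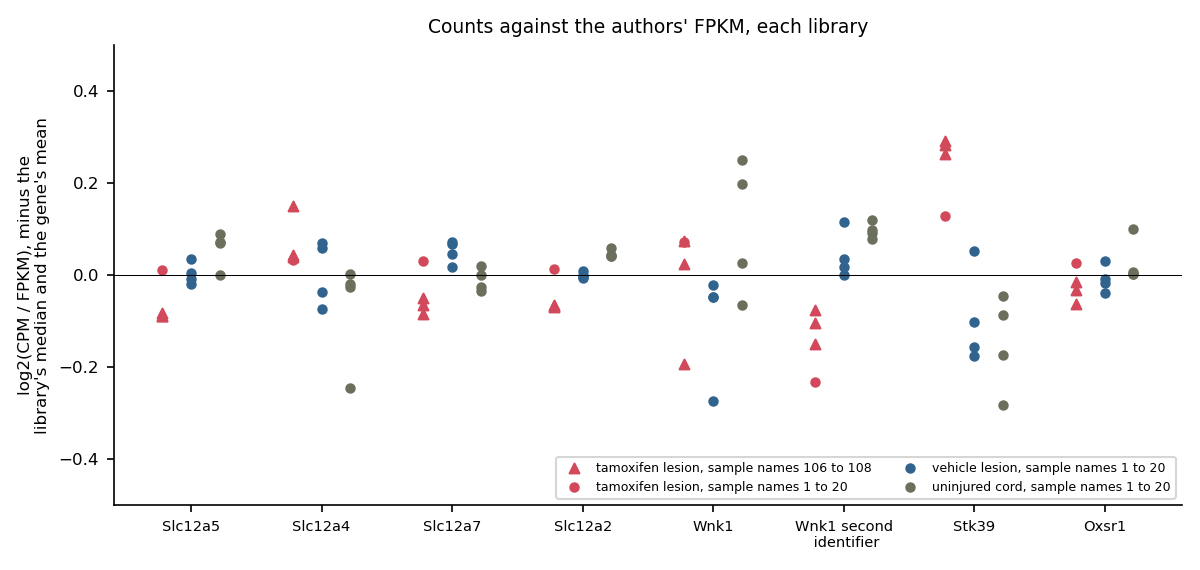
For each identifier and library, log2 of CPM over the authors' FPKM, less the library's median over genes and the identifier's mean over libraries (vertical axis); triangles are the 3 tamoxifen libraries with sample names 106 to 108 and circles the other libraries, with tamoxifen lesions left of vehicle lesions and uninjured cords. Stk39 is the only identifier whose tamoxifen libraries all lie above the other libraries, and the second Wnk1 identifier the only one whose tamoxifen libraries all lie below them.

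Oxsr1, the paralogue of Stk39 and its partner as a WNK target, did not pass the test in any comparison. It had 143, 144, 138 and 144 CPM in tamoxifen lesions and 136, 153, 139 and 149 CPM in vehicle lesions, against 156, 147, 157 and 155 CPM in uninjured cords. The vehicle range covered the tamoxifen one and reached into the uninjured one, which lay above the tamoxifen one. The log2 change was −0.02 for tamoxifen against vehicle lesions (adjusted p = 0.818). It was −0.09 for vehicle lesions against uninjured cord (adjusted p = 0.145) and −0.11 for tamoxifen lesions against uninjured cord (adjusted p = 0.0832). Each had an SE of 0.05. In each comparison with uninjured cord, 20 of 21 alternatives stayed uncalled. The 1 that passed was the fit without library 428 for vehicle lesions (−0.14, adjusted p = 0.0471) and DESeq2 for tamoxifen lesions (adjusted p = 0.0318).

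Ordered by mean FPKM, the uninjured cords had Wnk1 at 132 ± 14.5, Slc12a5 at 114 ± 2.50, Stk39 at 59.0 ± 3.55, Slc12a2 at 45.9 ± 1.52, Oxsr1 at 29.2 ± 0.898, Slc12a4 at 13.6 ± 1.93 and Slc12a7 at 2.19 ± 0.594 FPKM (SD, n = 4 each). The second Wnk1 identifier is left out of the orders given here. It averaged 12.9 ± 1.11 FPKM in uninjured cords, where its range overlapped that of Slc12a4. Among the genes listed, the ranges of Wnk1 and Slc12a5 overlapped in uninjured cords and those of the other neighbours did not. In tamoxifen lesions the order was Wnk1, Slc12a5, Slc12a2, Stk39, Oxsr1, Slc12a4 and Slc12a7 (133 ± 17.7, 69.5 ± 9.69, 51.0 ± 6.44, 40.1 ± 2.43, 27.5 ± 1.06, 18.8 ± 2.78 and 3.00 ± 0.315 FPKM), with Slc12a2 and Stk39 overlapping. Vehicle lesions had the same order (178 ± 8.30, 63.3 ± 7.87, 52.8 ± 4.65, 42.5 ± 6.17, 27.6 ± 1.45, 23.6 ± 1.495 and 4.30 ± 0.536 FPKM), with only Slc12a5 and Slc12a2 overlapping among neighbours. Stk39 thus stood above Slc12a2 in uninjured cord and below it in the group means of both lesions.

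Further SLC12 genes were read from a list. Slc12a1 and Slc12a3, the kidney cotransporters NKCC2 and NCC, had at most 1.05 CPM in any library and did not pass the filter. Slc12a9, an orphan member of the family, averaged 59.0 ± 8.12 CPM in tamoxifen lesions and 63.1 ± 6.42 CPM in vehicle lesions, against 40.9 ± 4.43 CPM in uninjured cords, with log2 changes from uninjured cord of 0.53 (adjusted p = 0.00205) in tamoxifen lesions and 0.62 (adjusted p = 0.000521) in vehicle lesions, and −0.10 between tamoxifen and vehicle lesions (adjusted p = 0.567). Slc12a8 was near the detection limit, at 2.45 ± 0.528 CPM, 2.31 ± 0.465 CPM and 1.06 ± 0.258 CPM in the same order, and its rises of 1.22 and 1.11 rest on 9 to 34 counts a library. Neither Slc12a9 nor Slc12a8 was called between tamoxifen lesions and uninjured cord by edgeR with the name series in the fit. Without the muscle-high libraries the vehicle values of both genes rest on 1 library.

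Of 10 other WNK pathway genes, tamoxifen lesions had 1 higher and 5 lower than uninjured cord, and vehicle lesions 1 higher and 6 lower than uninjured cord. Tamoxifen lesions had 1 higher and 1 lower than vehicle lesions. Over all genes, 26.3% and 22.7%, 26.7% and 24.1%, and 7.79% and 8.33% were called higher and lower in these comparisons. The median log2 changes of the 10 were −0.17, −0.21 and 0.06. Against uninjured cord, 0 were higher and 1 lower in tamoxifen lesions with the name series in the fit and 0 higher and 3 lower without the muscle-high libraries, where vehicle lesions had none called. Wnk2 and Wnk3, kinases of the same family, were lower in both lesion groups: Wnk2 averaged 88.6 ± 14.7 CPM in tamoxifen lesions and 95.9 ± 10.97 CPM in vehicle lesions, against 161 ± 4.97 CPM in uninjured cords. Wnk3, which the FPKM table names Wnk3-ps, averaged 42.8 ± 7.47 CPM, 40.2 ± 3.91 CPM and 68.2 ± 4.00 CPM in the same order. Wnk4 was the exception in vehicle lesions, with 8.41 ± 1.51 CPM in tamoxifen lesions, 13.4 ± 1.96 CPM in vehicle lesions and 13.4 ± 2.53 CPM in uninjured cords. Its tamoxifen libraries (6.16 to 9.35 CPM) lay below all uninjured ones (10.6 to 16.3 CPM), where 41.1% of all genes had no overlap. Its fall between lesions (log2 −0.68, SE 0.17, adjusted p = 0.0206) was not called in the authors' FPKM. There tamoxifen and vehicle libraries overlapped at 1.36 to 2.90 and 1.64 to 3.02, and uninjured ones ran from 1.76 to 3.39.

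Cab39, the scaffold MO25 that activates SPAK and OSR1, had 261, 276, 276 and 293 CPM in tamoxifen lesions and 236, 234, 218 and 231 CPM in vehicle lesions, against 292, 287, 279 and 274 CPM in uninjured cords. Tamoxifen lesions lay above all vehicle lesions (log2 0.27, SE 0.05, adjusted p = 0.00691) and overlapped uninjured cords (−0.03, adjusted p = 0.616), and vehicle lesions lay below uninjured cords (−0.30, adjusted p = 0.000388). In FPKM its groups kept the same order, at 61.5 to 70.1 in tamoxifen lesions and 51.8 to 56.2 in vehicle lesions, against 65.5 to 69.2 in uninjured cords. Klhl3, the adaptor that brings WNK kinases to the Cul3 ubiquitin ligase, was lower than in uninjured cord, with log2 changes of −0.82 in tamoxifen lesions (adjusted p = 0.00178) and −0.98 in vehicle lesions (adjusted p = 0.000435), while Klhl2 gave −0.01 (adjusted p = 0.918) and −0.04 (adjusted p = 0.623). Cul3 gave −0.05 in tamoxifen lesions (adjusted p = 0.455) and −0.18 in vehicle lesions (adjusted p = 0.00935). Sgk1, a kinase induced by glucocorticoids, had 97.8, 306, 215 and 94.5 CPM in tamoxifen lesions and 276, 81.1, 273 and 71.4 CPM in vehicle lesions, against 71.2, 93.8, 54.9 and 80.1 CPM in uninjured cords, so 2 libraries of each lesion group carried the rise; its calls against uninjured cord (adjusted p = 0.0472 and 0.0495) were absent from the FPKM fits. With the name series in the fit, none of the 10 was called between lesions by edgeR.

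**Figure D4:**
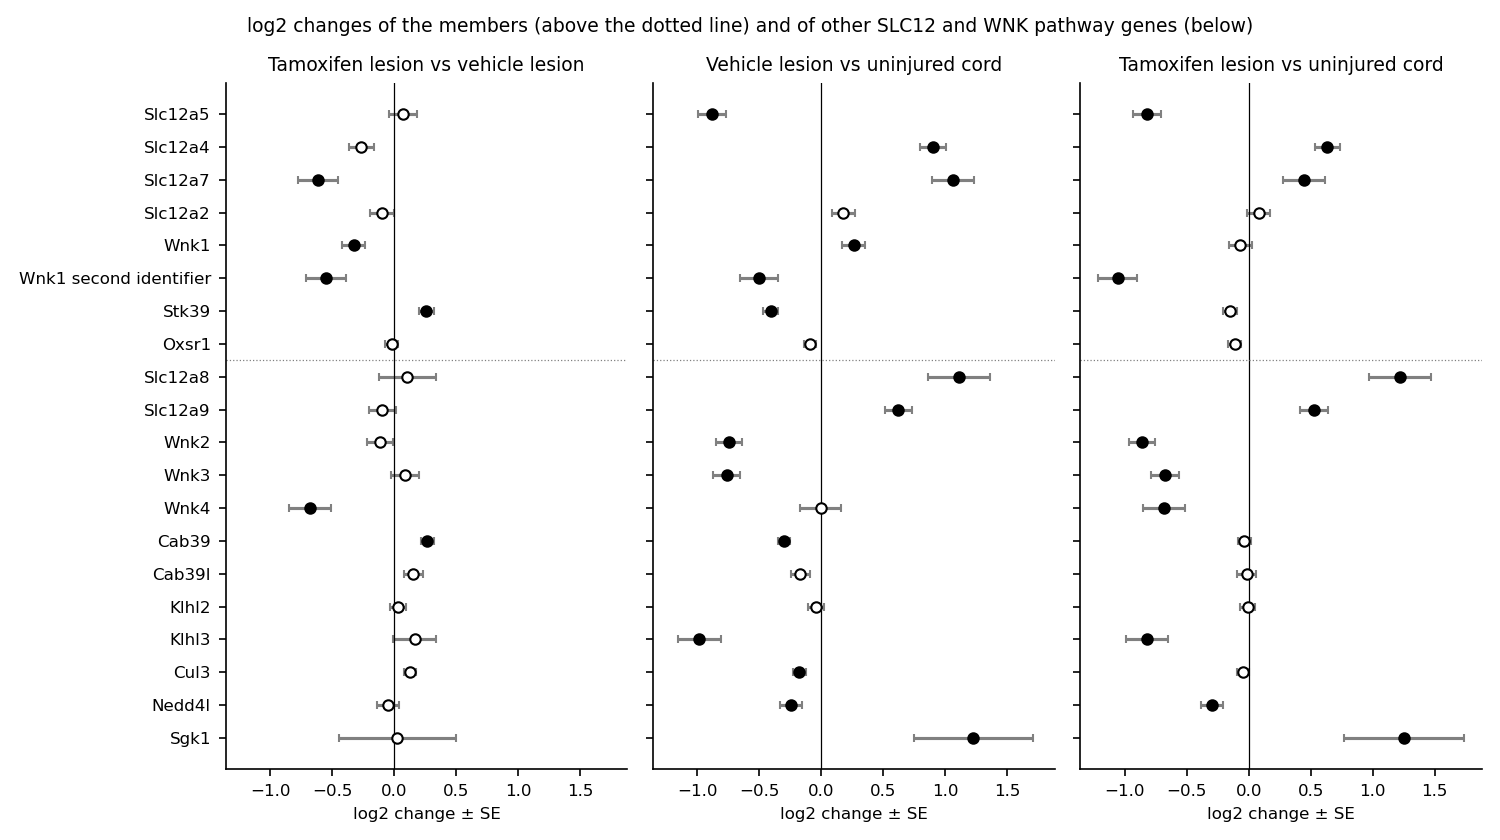
Log2 change with its SE (horizontal axis) of the 8 identifiers, above the dotted line, and of 2 other SLC12 genes and 10 WNK pathway genes tested, below it, in the 3 comparisons; filled points passed an adjusted p of 0.05. Slc12a5 lies left of 0 in both comparisons with uninjured cord and Slc12a4 and Slc12a7 right of it.

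Genes known to act on Slc12a5 or its protein were called in both directions, as were genes at large. Of 15, tamoxifen lesions had 5 higher and 6 lower than uninjured cord and vehicle lesions 3 higher and 7 lower. Between tamoxifen and vehicle lesions 1 was higher and 1 lower with tamoxifen. The shares over all genes were 26.3% and 22.7%, 26.7% and 24.1%, and 7.79% and 8.33%. Median log2 changes of the 15 were −0.14, −0.18 and 0.11. Against uninjured cord, tamoxifen lesions had 1 higher and 2 lower with the name series in the fit and 1 higher and 4 lower without the muscle-high libraries, where vehicle lesions had none called. Prkcd, a protein kinase C abundant in myeloid cells, averaged 47.3 ± 10.2 CPM in tamoxifen lesions and 67.5 ± 7.66 CPM in vehicle lesions, against 24.6 ± 3.01 CPM in uninjured cords, and was the gene called lower between lesions (log2 −0.52, adjusted p = 0.0331). None of the 15 was called between lesions by edgeR with the name series in the fit. Pacsin1 and Epb41l1, whose products bind KCC2 or anchor it to the cytoskeleton, were lower than in uninjured cord. Their log2 changes were −0.67 (adjusted p = 0.000117) and −0.70 (adjusted p = 7.4e-05) in tamoxifen lesions. In vehicle lesions they were −0.79 (adjusted p = 2.1e-05) and −0.81 (adjusted p = 1.4e-05). The neuron markers had median log2 changes of −0.43 and −0.60 in tamoxifen and vehicle lesions, and the part of neuron content in the Pacsin1 and Epb41l1 values was not tested. The 9 microglia and macrophage markers had summed CPM of 794 to 1702 in tamoxifen lesions and 1136 to 2293 in vehicle lesions, against 193 to 243 in uninjured cords, and their part in the Prkcd values was not tested.

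Among 16 chloride, bicarbonate and sodium carriers, tamoxifen lesions had 2 higher and 8 lower than uninjured cord, vehicle lesions 1 higher and 7 lower, and tamoxifen lesions 2 higher and 1 lower than vehicle lesions. These 10 and 8 of 16 called against uninjured cord stand beside 48.9% and 50.8% of all genes. Tamoxifen lesions had 1 higher and 3 lower than uninjured cord with the name series in the fit and 0 higher and 4 lower without the muscle-high libraries, where vehicle lesions had none called. Slc4a3 and Slc4a8, which exchange bicarbonate for chloride, were lower than in uninjured cord, with log2 changes of −0.52 and −0.77 in tamoxifen lesions (adjusted p = 0.000428 and 0.000101) and −0.54 and −0.55 in vehicle lesions (adjusted p = 0.000215 and 0.0005). Atp1b1, a pump subunit, was 0.31 higher on the log2 scale in tamoxifen than in vehicle lesions (adjusted p = 0.0484), with overlapping groups. With the name series in the fit, none of the 16 was called between lesions by edgeR.

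The inhibitory synapse has receptors that pass the chloride KCC2 extrudes, and most of its listed genes were lower after injury: of 14 genes, 12 were lower in tamoxifen lesions and 13 in vehicle lesions than in uninjured cord and none was higher, with median log2 changes of −0.55 and −0.80. Over all genes 22.7% and 24.1% were called lower, and 9 and 12 of the 12 neuron markers were lower in the same comparisons; the part of neuron content in these values was not tested. The count of genes lower than in uninjured cord was 2 in tamoxifen lesions with the name series in the fit, and 5 in tamoxifen lesions and 0 in vehicle lesions without the muscle-high libraries. Glra1, a glycine receptor subunit, averaged 56.9 ± 13.6 CPM in tamoxifen lesions and 63.9 ± 4.13 CPM in vehicle lesions, against 196 ± 24.6 CPM in uninjured cords (log2 −1.79 and −1.62, adjusted p = 1.4e-05 and 4.1e-06). Slc6a5, the neuronal glycine transporter, fell with log2 changes of −0.74 in tamoxifen lesions (adjusted p = 0.000147) and −0.86 in vehicle lesions (adjusted p = 3.3e-05). Slc32a1, which loads GABA and glycine into vesicles, averaged 126 ± 22.9 CPM in tamoxifen lesions and 103 ± 15.6 CPM in vehicle lesions, against 213 ± 13.3 CPM in uninjured cords. Between lesions 3 of the 14 were higher with tamoxifen and none lower, among them Glrb, a glycine receptor subunit, and Gphn, the scaffold gephyrin, by log2 changes of 0.41 (adjusted p = 0.00782) and 0.18 (adjusted p = 0.0467). Slc12a5 gave 0.07 in that comparison. None of the 14 was called there by edgeR with the name series in the fit, and 1 or 3 were called in FPKM, depending on the pseudocount.

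Over the 12 libraries, the genes with levels most like each member's were found by Pearson's r of log2 CPM among 11725 genes, as a description in which the 3 group means dominate. Slc12a5 was closest to Syt7 (r = 0.996), Hcn4 (0.995) and Rasgrf1 (0.995). Slc12a4 was closest to Lrp10 and Bace2 (both 0.983) and Sipa1 (0.979), and Slc12a7 to Rcsd1 (0.987), C1ra (0.985) and Igfbp7 (0.977). Wnk1 was closest to Slk (0.983), Chd7 (0.977) and Otud4 (0.974), and its second identifier to Dennd4b, Zfp142 and Fry (0.980 each). Stk39 was closest to Slc6a11 (0.983), Kcnab1 (0.976) and Nsg2 (0.974). Slc12a2 and Oxsr1 had the lowest best values, 0.924 with Nfasc and 0.921 with Eif2ak1. Among the members, Slc12a5 ran against Slc12a4 (r = −0.93) and Slc12a7 (−0.76) and along with Oxsr1 and Stk39 (0.80 each), and Slc12a4 ran along with Slc12a7 (0.89).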

How the data were processed

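Total RNA of 12 spinal cord libraries was sequenced. Per the submitters' processing notes the build was mm9 and TopHat, Picard, Cufflinks and HTSeq were used; the role and settings of each, and strandedness, were not given in the sources. Raw counts of 37991 Ensembl identifiers, all whole numbers, were deposited by the authors, with a second table that the authors gave in FPKM. Counts were used for all tests; the deposited FPKM gave levels per length and alternatives. The FPKM table named 37818 identifiers and the GENCODE annotation a further 99; several FPKM entries existed for 18 identifiers, and 22 cells were not numbers.

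In R 4.3.3 with edgeR 4.0.16, filterByExpr (minimum count 10, minimum total 15) left 16473 genes, TMM scaled the libraries, and a quasi-likelihood model with the 3 groups as its terms (residual degrees of freedom 9) was tested two-sided. The SE is the log2 change over the square root of F. FPKM was tested with limma 3.58.1 on log2(FPKM + 1) or log2(FPKM + 0.1), scales that understate changes of low genes; DESeq2 1.42.0 was another alternative. On simulated data for vehicle lesions against uninjured cord, 74% and 84% of 50 genes each at true folds of 0.5 and 2 were recovered among 16473, and 9 of 16273 unchanged genes were called. Between tamoxifen and vehicle lesions the values were 88%, 72% and 8. The simulated libraries shared a common mean for every unchanged gene and had no difference of name series, sex or muscle content. These values are therefore not error rates of the calls reported here.

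The members and lists were chosen with earlier results of these data known. Named were the members, all genes of the SLC12 and WNK lists, up to 4 genes with the smallest p of each other list in a comparison, and the 3 genes most like each member among those with a mean of at least 5 CPM. Some genes that this rule names are not reported here. Reads carry no molecular identifiers and the precision of levels is the spread between libraries. Sequences were taken from RefSeq on GRCm38.p6.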

Additional observations from a re-analysis of the deposited data

Results flagged for a closer look

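Within groups of 4 libraries, 27 sets of values were tested with Dixon's ratio (the gap of the farthest library to its neighbour over the whole range), and 2 were flagged; chance flags about 1 set in 20. Slc12a4 in vehicle library 457 was low, at 69.4 CPM, with a gap of 0.876 of the range of the vehicle lesions, whose other libraries had 76.0, 76.9 and 76.2 CPM. Oxsr1 in uninjured library 377 was low, at 147 CPM, with a gap of 0.841 of the range of the uninjured cords, whose other libraries had 156, 157 and 155 CPM.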

How the results depend on the processing

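The number of genes called between tamoxifen and vehicle lesions was 2655. It was 615 with a fold of at least 2, 204 among female libraries, 1513 when only the 8 lesion libraries were fitted, 919 and 1341 by limma on FPKM with pseudocounts of 0.1 and 1, 57 with the sample name series and 989 with sex in the fit, and 0 by edgeR without the muscle-high libraries (a set chosen after seeing the data, as were the female libraries; each leaves 1 vehicle library, which is assumed to vary like the other groups; without the muscle-high libraries 1239 genes had an unadjusted p under 0.05). Leaving out 1 library gave 1236 (without 513) to 4631 (without 452), with 1324 without 564 and 1688 without 457. For vehicle lesions against uninjured cord 8368 became 2052, 5250 and 296 with a fold of at least 2, among females and without the muscle-high libraries. For tamoxifen lesions against uninjured cord 8063 became 1673, 1951 and 3540 with a fold of at least 2, with the name series and without the muscle-high libraries. The cause of these shifts was not tested. For Stk39 between lesions, limma on FPKM reversed the sign to −0.07 with either pseudocount (−0.0725 and −0.0738). The Slc12a5 to Slc12a2 ratio of uninjured cords was 2.04 from CPM, which is not per length. Slc12a5 kept its calls against uninjured cord in every alternative for tamoxifen lesions and in all but the one without muscle-high libraries for vehicle lesions. No paired analysis was possible because each mouse number occurs in 1 group alone. Depth limits the low genes most: Slc12a8 had 9 to 34 counts a library, and the second Wnk1 identifier 51 to 154.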
